A study of Mus musculus with 10 samples.

Results

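COMPASS core and accessory subunits are the proteins that hold together the enzyme complexes methylating lysine 4 of histone H3 (H3K4). The 10 genes described here, of 24837 in the deposited count matrix, were picked by symbol, by a rule that uses no measured value although earlier results of these data were known: Wdr5, Rbbp5, Ash2l and Dpy30 of the shared core, Cxxc1 and Wdr82 of the SET1 complexes, Hcfc1, Men1 and Psip1, and Paxip1 of the MLL3/MLL4 complexes. Each symbol matched exactly 1 row of the matrix. The animals were C57B/6J mice, wild type, aged 4 to 7 months and unstimulated. Nuclei from their frozen hippocampi were stained with 7AAD, sorted and profiled by droplet sequencing of transcript 3′ ends. The labels list 10 samples in 1 group, and the titles of 4 of them name RNASET2 controls although their characteristics match the rest. The matrix pools all nuclei under 7 barcode suffixes, called sets here, with no map from set to sample. It therefore counts as 1 sample without replicates, and no p-value was computed.

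Methylation of H3K4 marks active promoters and enhancers. In mammals it is placed by a family of methyltransferases (SETD1A, SETD1B and the MLL enzymes), each of which needs, for full activity, the same core of WDR5, RBBP5, ASH2L and DPY30. Further subunits direct particular family members to the genome, and loss of several of the enzymes in forebrain neurons is known to impair memory in mice.

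Nuclei were grouped by clustering without the 10 genes and named from marker genes, so each class name is short for “-like”. After filters and removal of 280 called doublets (1.8%), all but 788 nuclei fell into 12 named classes. The classes held 2350 CA1 pyramidal, 672 CA2/CA3 pyramidal, 2420 dentate granule, 2483 subicular or cortical pyramidal, 627 other excitatory, 1713 inhibitory, 794 other and 108 Cajal-Retzius neurons, and 2503 oligodendrocytes, 297 oligodendrocyte precursors, 129 astrocytes and 389 microglia. Of the 794 other neurons, 701 came from set 1, so that class may stand for a set as much as for a cell type. Clusters almost wholly of set 1 also lay inside other classes. Set 1 gave 639 of 645 nuclei of a dentate granule cluster and 601 of 610 of an oligodendrocyte cluster. It gave 198 of 203 nuclei of a CA1 cluster and 93 of 97 of a CA2/CA3 cluster. Neurons carried a mean of 7644 UMIs (unique molecular identifiers, 1 per captured transcript molecule) and non-neuronal nuclei 1866, a 4.10-fold gap. Median UMIs per barcode ranged from 1012 to 8176 over the sets, and 21 barcode stems occurred in more than 1 set. Transcripts of 1 class were also counted in another: the excitatory marker Slc17a7 stood at 25.9 CPM in oligodendrocytes against 231 CPM in excitatory neurons. Whether free RNA, uncalled doublets or misnamed nuclei gave these stray counts was not tested. CPM is UMIs of a gene per 1000000 UMIs of the class. Intervals are exact 95% intervals of counts and cover counting error only.

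All 10 genes were detected, with 31959 UMIs in all. Men1 had the fewest, 713 UMIs, and a UMI in 4.33% of nuclei. Psip1 had the most, 13078 UMIs, and a UMI in 46.6% of nuclei. The other 8 lay between 1579 UMIs (Cxxc1) and 3103 (Paxip1), with a UMI in 9.34 to 16.2% of nuclei. Levels of different genes were compared per length, both of the gene span and of the transcript, since nuclear RNA holds unspliced transcripts and whether intronic reads were counted is not known. Per kilobase of longest annotated transcript, Psip1 stood first at 39.7 CPM, Dpy30 second at 23.5 CPM and Hcfc1 last at 2.14 CPM. Counts of transcript 3′ ends need not grow with transcript length, and before this division Dpy30 and Hcfc1 stood at 18.6 and 17.7 CPM. Per kilobase of gene span Psip1 was again first at 4.20 CPM, while Cxxc1 was second at 2.90 CPM and Paxip1 last at 0.594 CPM. Dpy30, whose longest transcript is 0.789 kb within a 24.5 kb gene, moved from second to eighth place between these scales. Psip1 was thus first on both per-length scales, and the order of the others depended on the scale.

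Among the core genes, Rbbp5 and Dpy30 varied most between classes. Rbbp5 encodes the subunit that contacts the catalytic SET domain together with ASH2L. It lies on chromosome 1 at 132477365 to 132505659 on the plus strand (GRCm38, GENCODE M21). Its level was 38.5 CPM (33.0 to 44.7, 174 UMIs) in oligodendrocytes and 30.7 CPM (28.1 to 33.5, 506 UMIs) in dentate granule neurons. In the other well-counted neurons it was lower and nearly flat: 19.8 CPM in CA1, 19.5 in CA2/CA3, 20.1 in subicular or cortical, 18.6 in other excitatory, 20.3 in inhibitory and 22.5 in other neurons. Oligodendrocytes and dentate granule cells therefore stood above the remaining neurons, whose intervals overlapped one another. Oligodendrocyte precursors had the lowest level, 11.9 CPM (5.45 to 22.6), but on 9 UMIs, and microglia had 18.2 CPM on 11 UMIs. Astrocytes at 28.6 CPM and Cajal-Retzius neurons at 26.7 CPM rested on 9 and 6 UMIs.

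Dpy30 encodes a small subunit that binds ASH2L and raises the activity of the assembled core. It lies on chromosome 17 at 74299474 to 74323944 on the minus strand. Its level was 29.0 CPM (24.2 to 34.4, 131 UMIs) in oligodendrocytes, 27.8 CPM in oligodendrocyte precursors, 23.2 CPM in microglia and 38.2 CPM in astrocytes, the last 3 on 21, 14 and 12 UMIs. Among neurons it was 12.3 CPM (10.3 to 14.6) in CA2/CA3, 13.7 in other excitatory, 15.5 in CA1, 16.3 in dentate granule, 17.5 in inhibitory and 18.5 CPM in subicular or cortical neurons. The other neurons departed from this at 34.0 CPM (29.5 to 39.0, 207 UMIs). Leaving those aside, and the 7 UMIs in Cajal-Retzius neurons, the neuronal levels lay below all 4 non-neuronal ones, although the intervals of the sparsely counted non-neuronal classes reached into the neuronal range.

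Because Rbbp5 and Dpy30 are the genes that come at least 1.5-fold apart in the comparisons below, bases before a transcript start of each are shown, with each CG dinucleotide in capitals. CG is the pair that the zinc-finger domain of CXXC1 recognises when unmethylated. Both stretches are read 5′ to 3′ on the gene's strand from RefSeq's promoter table (GRCm38.p6), and bases inside an annotated exon were left out. Rbbp5 is chr1:132477117-132477364 on the plus strand. Dpy30 is chr17:74316464-74316683 on the minus strand. It precedes 1 of 4 listed starts, taken as the first with at least 10 CG and at most 30 exonic bases, and the outermost start has 1 CG in its 250 bases.
Rbbp5: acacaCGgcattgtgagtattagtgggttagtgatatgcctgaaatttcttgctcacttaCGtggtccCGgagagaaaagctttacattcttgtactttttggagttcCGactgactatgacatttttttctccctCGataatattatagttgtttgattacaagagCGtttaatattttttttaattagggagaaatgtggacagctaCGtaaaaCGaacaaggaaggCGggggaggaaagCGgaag
Dpy30: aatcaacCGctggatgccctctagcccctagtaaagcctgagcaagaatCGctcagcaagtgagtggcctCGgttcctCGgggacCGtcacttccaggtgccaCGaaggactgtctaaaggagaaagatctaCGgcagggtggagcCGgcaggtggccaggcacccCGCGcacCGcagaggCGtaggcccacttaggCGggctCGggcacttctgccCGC
The 248 bases of Rbbp5 hold 10 CG and the 220 bases of Dpy30 hold 15. The last capital C of Dpy30 belongs to a CG whose G was left out with the exonic bases, and it is not counted. Starts of 7 of the 10 genes, 12 in all, were used from that table. Of those starts, 9 have at least 10 CG in the 250 bases before them, as do 37.8% of all 32850 starts in the table. The starts are not independent: Dpy30 has 4 and Men1 3, several so close that their 250 bases overlap and share CG. These counts describe the sequence, and the expression values here do not bear on methylation or binding at it.

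The other core genes varied less. Wdr5, the WD40-repeat scaffold of the core, ranged over the 12 classes from 11.9 CPM in oligodendrocyte precursors (9 UMIs) to 23.3 CPM in other neurons, with a median of 17.9 CPM. Its copy Wdr5b is a separate row of the matrix, and the division of reads between them is not known. Ash2l, which pairs with RBBP5, ranged from 24.5 CPM in CA1 to 37.0 CPM in oligodendrocytes. That 1.51-fold spread was the smallest among the 10 genes. Within neurons, Ash2l stood at 32.9 CPM (29.8 to 36.2) in inhibitory neurons against 24.5 (22.1 to 27.0) in CA1 and 25.6 (23.4 to 28.0) in subicular or cortical neurons.

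The SET1-specific genes ran in opposite directions. Cxxc1, the CpG-binding subunit, was at 17.8 CPM in dentate granule, 16.5 in CA1, 15.3 in subicular or cortical, 14.95 in CA2/CA3 and 14.5 CPM in inhibitory neurons. It was at 11.95 CPM (8.98 to 15.6, 54 UMIs) in oligodendrocytes and lowest, 6.62 CPM on 4 UMIs, in microglia. Wdr82, the subunit that links SET1 enzymes to transcribing RNA polymerase II, was at 38.5 CPM (33.0 to 44.7) in oligodendrocytes and 43.0 CPM in microglia (26 UMIs). In neurons Wdr82 was at 21.02 CPM in CA2/CA3, 22.9 in CA1, 25.5 in subicular or cortical, 26.9 in dentate granule and 28.1 in inhibitory neurons, with 39.4 CPM in other neurons. Cxxc1 was thus higher in these neurons, and Wdr82, other neurons aside, in oligodendrocytes and microglia. Sparsely counted classes blurred this. Precursors had Cxxc1 at 13.25 CPM (6.35 to 24.4) and Wdr82 at 29.15 CPM (18.3 to 44.1), with intervals that reached into the neuronal range. Cajal-Retzius neurons had Wdr82 at 31.1 CPM on 7 UMIs. The microRNA gene Mirlet7g lies inside Wdr82 on the same strand.

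Hcfc1, a transcriptional co-regulator shared by SET1 and MLL1/MLL2 complexes, was nearly level. It ranged from 14.6 CPM in oligodendrocyte precursors to 22.2 CPM in Cajal-Retzius neurons, both on few UMIs (11 and 5), with 18.8 CPM in oligodendrocytes and 19.1 in CA1. Men1 encodes menin, the MLL1/MLL2 adaptor, and had the fewest UMIs, alone or tied, in every class. In the 5 classes where it had most UMIs its level ran from 6.30 CPM in dentate granule to 8.43 CPM in CA2/CA3 neurons. Its 4.03-fold range over 12 classes rested on 2 UMIs in microglia and 3 in Cajal-Retzius neurons.

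Psip1 encodes LEDGF, a chromatin-binding protein that tethers menin and MLL1. It lies on chromosome 4 at 83455680 to 83486459 on the minus strand, and Snapc3 overlaps it on the other strand. The class with the highest level was Cajal-Retzius neurons, 218 CPM (161 to 288, 49 UMIs), followed by other neurons at 171 CPM (160 to 181). Of those other neurons, 701 of 794 came from set 1. In that set excitatory neurons stood at 163 CPM and dentate granule neurons at 174.5 CPM. Oligodendrocytes had 149 CPM (138 to 161), dentate granule neurons 145 CPM (139 to 151), oligodendrocyte precursors 142 CPM and inhibitory neurons 137 CPM (131 to 144). CA1 neurons followed at 120 CPM (115 to 126), then other excitatory at 116, subicular or cortical at 110, CA2/CA3 at 109, microglia at 108 and astrocytes at 95.5 CPM. The step from inhibitory to CA1 neurons was the single place, in the ordered levels of all 10 genes, where the intervals of neighbouring classes did not overlap. It was not shared by all sets. Psip1 was higher in inhibitory than CA1 neurons in sets 1 to 4. The order was reversed in set 5 (96.85 against 123.9 CPM) and set 6 (119 against 134.5 CPM).

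Paxip1 encodes PTIP, a BRCT-repeat protein of the MLL3/MLL4 complexes. Its highest level was in CA2/CA3 neurons, 38.1 CPM (34.5 to 41.9, 420 UMIs), and dentate granule neurons followed at 34.6 CPM (31.8 to 37.6). CA1 had 29.6, inhibitory 27.2, subicular or cortical 26.7 and other excitatory neurons 27.1 CPM. Oligodendrocytes, at 29.2 CPM (24.4 to 34.6), fell within that neuronal range. Paxip1 was the only gene of the 10 with its highest level over the 12 classes in CA2/CA3 neurons.

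**Figure D1:**
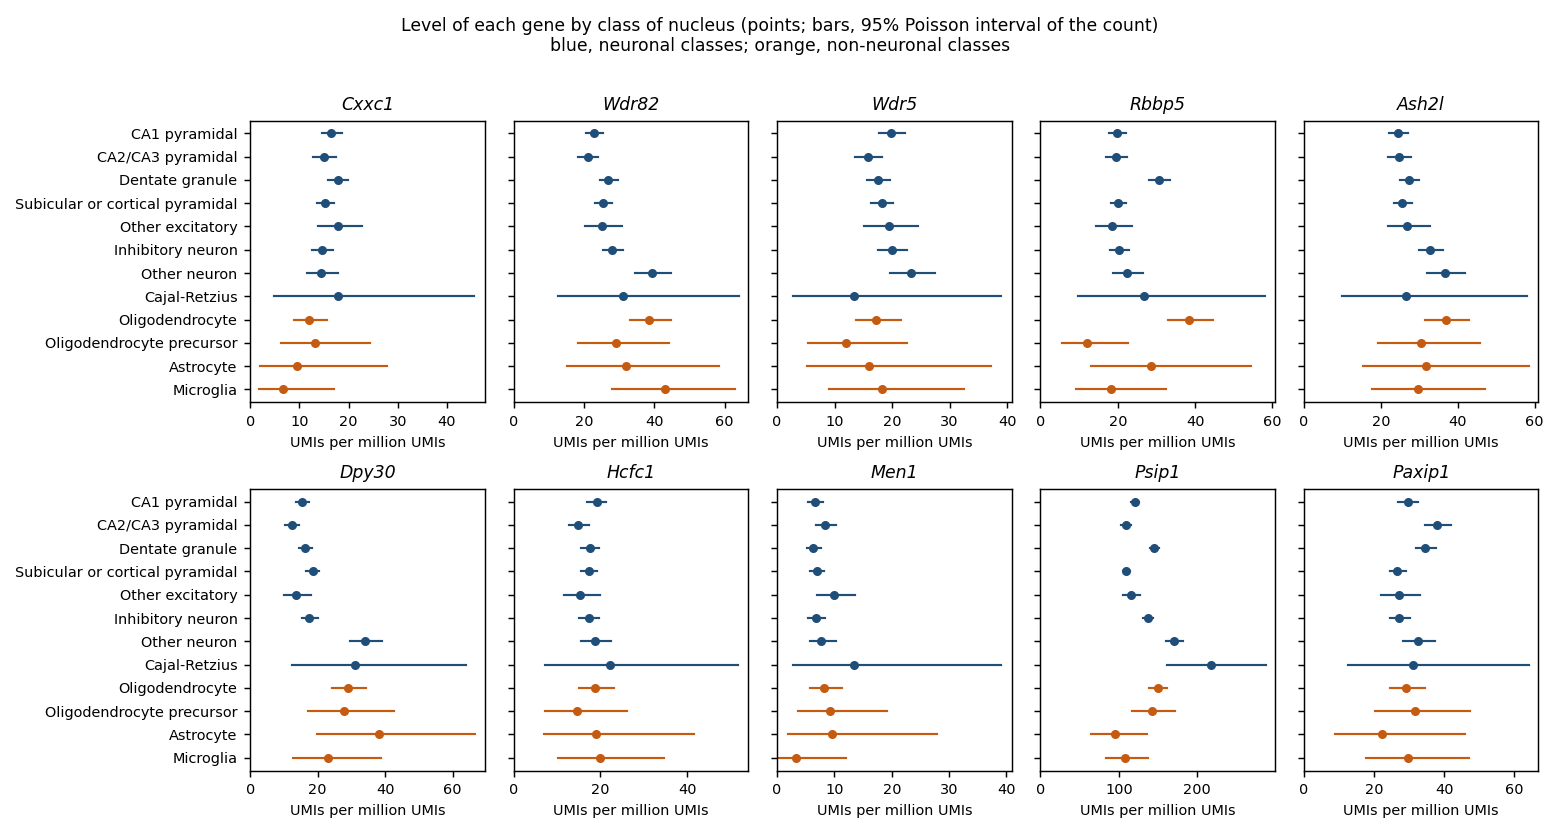
Level of each gene in CPM in 12 classes of nuclei; points are levels, bars are 95% Poisson intervals, each panel has its own axis from 0. Rbbp5 stands at 38.5 in oligodendrocytes and 30.7 in dentate granule neurons, and Paxip1 at 38.1 in CA2/CA3 neurons.

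The first comparison asked how neurons differ from non-neuronal nuclei. Dpy30 alone among the 10 genes was at least 1.5-fold apart: 17.5 CPM in neurons and 28.7 CPM in non-neuronal nuclei, a ratio of 0.609 (0.521 to 0.715). For comparison, 60.2% of the 13737 genes with at least 100 UMIs over both sides were at least 1.5-fold apart in either direction. A share of 1 in 10 genes is thus below that of all genes. Dpy30 was lower in neurons in all 5 sets that held at least 50 nuclei of each kind. Its ratios there were 0.711, 0.623, 0.626, 0.513 and 0.407 in sets 1 to 5. At equal depth, with nuclei thinned to 1000 UMIs, the call passed to another gene: Dpy30 had a ratio of 0.692, no longer 1.5-fold, and Rbbp5 had 0.600. Dpy30 was lower in neurons under all 14 scaled alternatives tried.

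Rbbp5 had a ratio of 0.677 (0.585 to 0.786) and Wdr82 of 0.697 (0.608 to 0.801), just inside the 1.5-fold limit. Their direction was not shared by all sets: Rbbp5 was lower in neurons in 4 of 5 sets and Wdr82 in 3 of 5. Ash2l, at 0.784 (0.682 to 0.905), was lower in neurons in 5 of 5 sets, and Psip1, at 0.900 (0.840 to 0.965), in 3 of 5. Cxxc1 went the other way, 15.9 CPM in neurons against 11.5 CPM, a ratio of 1.38 (1.09 to 1.78) and higher in neurons in 5 of 5 sets. The intervals of Wdr5, Hcfc1, Men1 and Paxip1 held 1. The median over the 10 genes was -0.15 on the log2 scale, and that over all genes tested was -0.18. The sum of all 10 genes was 311 CPM in neurons and 360 CPM in non-neuronal nuclei. As a group the 10 genes thus lay close to the median gene.

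These ratios are relative to the total RNA counted. Per nucleus, without scaling, neurons had at least 1.5 times the UMIs of each of the 10 genes, since neurons carried 4.10-fold more UMIs. Dpy30 then had a ratio of 2.49, and 92.9% of all genes tested were at least 1.5-fold apart. With sequencing depth and nuclear RNA content both folded into UMIs per nucleus, these parts cannot be told apart.

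Excitatory and inhibitory neurons were close in every gene. None of the 10 genes was at least 1.5-fold apart, against 28.1% of 13153 genes tested. The largest difference was in Ash2l, 25.7 CPM in excitatory and 32.9 CPM in inhibitory neurons, a ratio of 0.782 (0.703 to 0.872) and lower in excitatory neurons in 5 of 6 sets. Paxip1 was higher in excitatory neurons at 1.15 (1.03 to 1.29), in 5 of 6 sets. Wdr82 at 0.871 (0.777 to 0.978) and Psip1 at 0.883 (0.839 to 0.931) also had intervals below 1, in 4 and 3 of 6 sets. Hcfc1 was nearly equal on both sides, 0.994 (0.861 to 1.15).

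Dentate granule and CA1 neurons stand at the entry and the output of the hippocampal relay. Rbbp5 was the 1 gene of the 10 at least 1.5-fold apart, while 28.1% of 11111 genes tested were. It stood at 30.7 CPM in dentate granule and 19.8 CPM in CA1 neurons, a ratio of 1.55 (1.34 to 1.79). Within sets 1 to 4, the deeply sequenced ones, the ratios were 1.76, 1.53, 1.62 and 1.57, each with an interval above 1. Sets 5 and 6 gave 1.37 and 0.808, on 4 and 10 dentate UMIs, with intervals that held 1. The pooled ratio was 1.455, under the limit, when unnamed clusters were put in their best class by markers. That placed with the dentate granule neurons a mixed cluster of 317 nuclei with only 2 of 11 dentate markers raised (Rbbp5 at 22.0 CPM). The same setting added 115 nuclei with 9 of 11 dentate markers raised, besides oligodendrocyte markers (Rbbp5 at 24.5 CPM). The part of each in the lower ratio was not tested. Psip1 was 1.205 (1.13 to 1.28), Wdr82 1.18 (1.02 to 1.35) and Paxip1 1.17 (1.03 to 1.33), and these 3 were higher in dentate granule neurons in 5, 4 and 4 of 6 sets. No gene of the 10 had an interval below 1. Wdr5 had a pooled ratio of 0.881, although it was above 1 in 4 of 6 sets, and its interval held 1. The median over the 10 was 0.14 on the log2 scale and 0.06 over all genes tested.

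CA2/CA3 pyramidal neurons, which receive the mossy fibres of the dentate granule cells, were compared with CA1. None of the 10 genes was at least 1.5-fold apart, where 22.0% of 10739 genes tested were. Paxip1 was higher in CA2/CA3, 1.29 (1.12 to 1.47), and above 1 in 4 of 4 sets with ratios of 1.29, 1.13, 1.42 and 1.35. Hcfc1 was lower, 0.777 (0.638 to 0.943), and Wdr5 was lower, 0.793 (0.655 to 0.957), each in 4 of 4 sets. Dpy30 at 0.797 (0.641 to 0.987) and Psip1 at 0.903 (0.839 to 0.972) were lower in 3 of 4 sets. Men1 had a ratio of 1.29, above 1 in 4 of 4 sets, and its interval (0.962 to 1.72) held 1. CA2/CA3 nuclei were the deepest class, at a median of 15830 UMIs against 3612 in CA1. The classes differed in their mix of sets. The shallow sets 5 and 6 gave 546 and 796 of the 2350 CA1 nuclei, and 32 and 35 of the 672 CA2/CA3 nuclei. Within sets 1 to 4 the CA1 medians were 9550, 10980, 11240 and 12080 UMIs. With nuclei thinned to 1000 UMIs, Psip1 and Paxip1 alone had 100 UMIs or more, and Paxip1 had a ratio of 1.80.

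**Figure D2:**
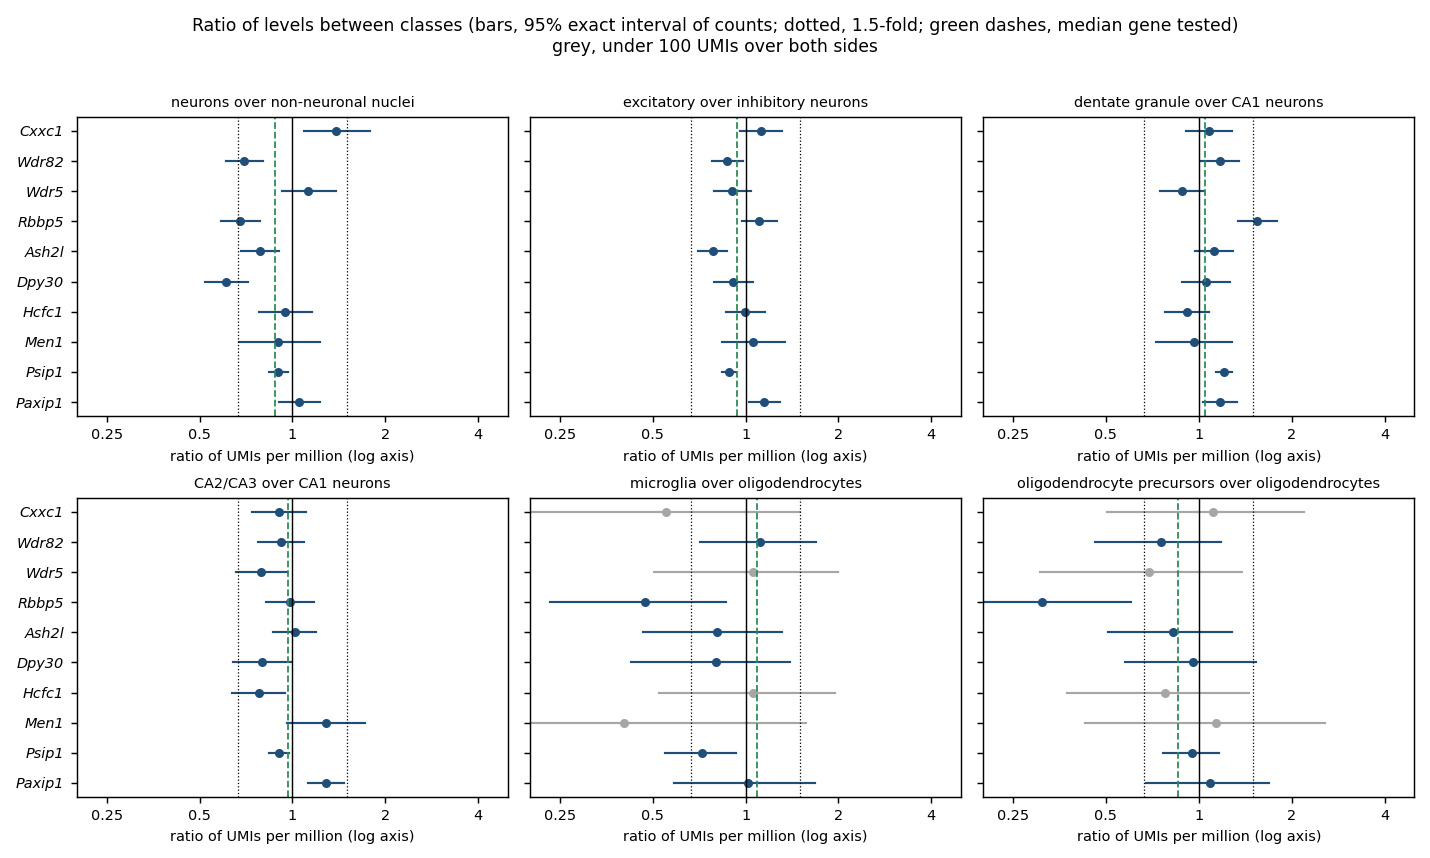
Ratio of levels for 6 pairs of classes on a log axis, 1 row per gene; points are ratios, bars 95% exact intervals of the counts, dotted lines 1.5-fold, green dashes the median gene tested, grey genes under 100 UMIs. Dpy30 lies at 0.609 in neurons over non-neuronal nuclei and Rbbp5 at 1.55 in dentate granule over CA1 neurons.

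Within the non-neuronal nuclei, 6 of the 10 genes had at least 100 UMIs over microglia and oligodendrocytes, and the other 4 could not be assessed. Rbbp5 was the 1 of 6 at least 1.5-fold apart, where 57.5% of 6906 genes tested were. It stood at 18.2 CPM in microglia and 38.5 CPM in oligodendrocytes, a ratio of 0.473 (0.232 to 0.867). The microglial UMIs of Rbbp5 were 4, 2, 3 and 0 in sets 1 to 4. Psip1 was lower in microglia at 0.720 (0.549 to 0.930), in 4 of 4 sets. The intervals of Wdr82, Ash2l, Dpy30 and Paxip1 held 1.

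Oligodendrocyte precursors give rise to oligodendrocytes. Of the 6 genes with enough UMIs, Rbbp5 alone was at least 1.5-fold apart, where 50.0% of 6866 genes tested were. It stood at 11.9 CPM in precursors and 38.5 CPM in oligodendrocytes, a ratio of 0.310 (0.139 to 0.602) that rests on 9 UMIs in 297 precursor nuclei. Set 1 alone gave 0.424 (0.0833 to 1.35), on 3 precursor UMIs, and sets 5 and 7 had no precursor UMI against 1 and 19 in oligodendrocytes. With those zeros set to 3 UMIs, the median over these sets was 0.703, under 1.5-fold. That median comes from the 3 UMIs put in and not from counted precursor UMIs, so it cannot place Rbbp5 against the limit. Psip1 (0.949), Dpy30 (0.9599), Paxip1 (1.09), Ash2l (0.825) and Wdr82 (0.757) all had intervals that held 1.

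The level of Rbbp5 moved with depth inside the oligodendrocytes. When the nuclei of each set were ranked by UMIs and cut into 3 equal parts (shallow, middle and deep), it was 24.9 (15.8 to 37.3), 34.3 (25.2 to 45.6) and 46.8 CPM (38.2 to 56.7), so the shallow and deep intervals did not overlap. In CA1 neurons the same parts gave 18.0, 22.2 and 19.0 CPM with overlapping intervals. Dpy30 was at 32.4 (21.9 to 46.3), 29.9 and 27.0 CPM (20.6 to 34.7) in oligodendrocytes, and at 20.2 (15.6 to 25.7), 15.5 and 13.4 CPM (10.9 to 16.3) in CA1, with overlapping intervals in both classes. Cxxc1 fell in CA1 from 23.5 (18.6 to 29.4) through 17.7 to 12.6 CPM (10.1 to 15.4) and was flat in oligodendrocytes at 11.9, 11.7 and 12.1 CPM. Psip1 changed little, from 144 to 152 CPM in oligodendrocytes and from 128 to 115 CPM in CA1. Scaling to total UMIs thus did not make every gene independent of depth.

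**Figure D3:**
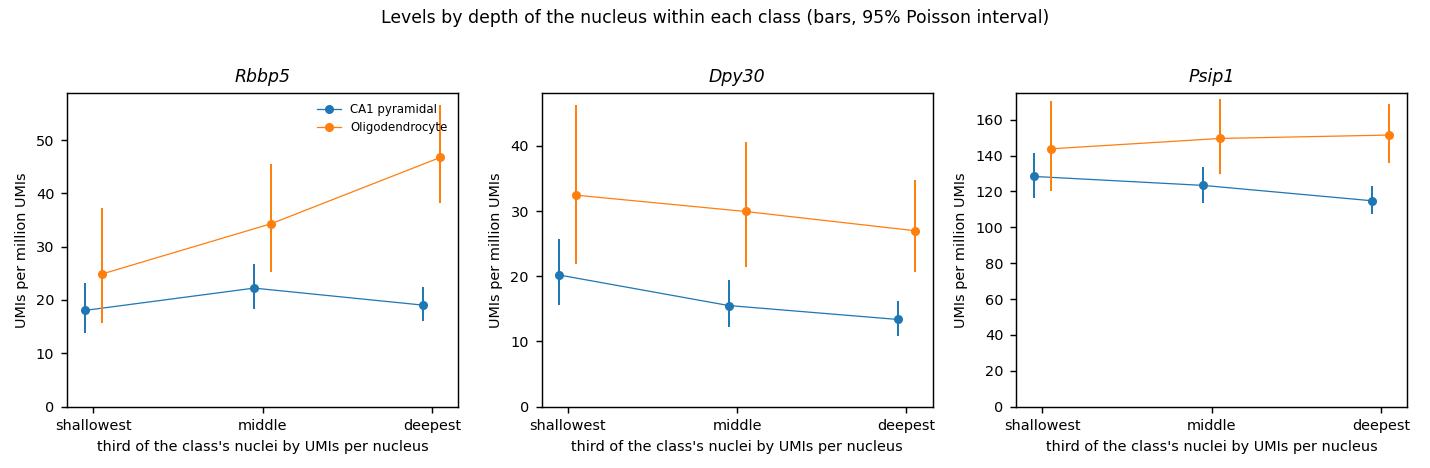
Level of 3 genes in CPM in the shallow, middle and deep parts of nuclei ranked on UMIs per nucleus, in CA1 neurons (blue) and oligodendrocytes (orange); bars are 95% Poisson intervals. Rbbp5 goes from 24.9 to 46.8 in oligodendrocytes and stays between 18.0 and 22.2 in CA1 neurons.

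Over the 6 sets with at least 50 excitatory neurons, the 10 genes spread by 1.22-fold (Hcfc1) to 1.99-fold (Dpy30) between the lowest and highest set, while the median of 8113 genes of like counts spread by 1.73-fold. Dpy30 was at 20.1 CPM in set 1, 13.4, 13.8 and 13.6 CPM in sets 2 to 4, and 26.8 and 19.5 CPM in sets 5 and 6. The sets with low depth, and set 1, were the high ones. Psip1 was at 163 CPM (155 to 171) in set 1 against 110 to 130 CPM in the other 5, and set 1 was also highest in CA1, dentate granule and inhibitory neurons taken alone. Rbbp5 was at 22.4 to 25.2 CPM in sets 1 to 4 and at 16.7 and 15.8 CPM in the shallow sets 5 and 6. In oligodendrocytes Rbbp5 was at 35.5, 34.6, 51.6 and 35.5 CPM in sets 1 to 4 and 46.9 CPM in set 7, and the 9.01 CPM of set 5 rested on 1 UMI. In every set from 1 to 4 the level of Rbbp5 in oligodendrocytes was above its level in excitatory neurons.

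**Figure D4:**
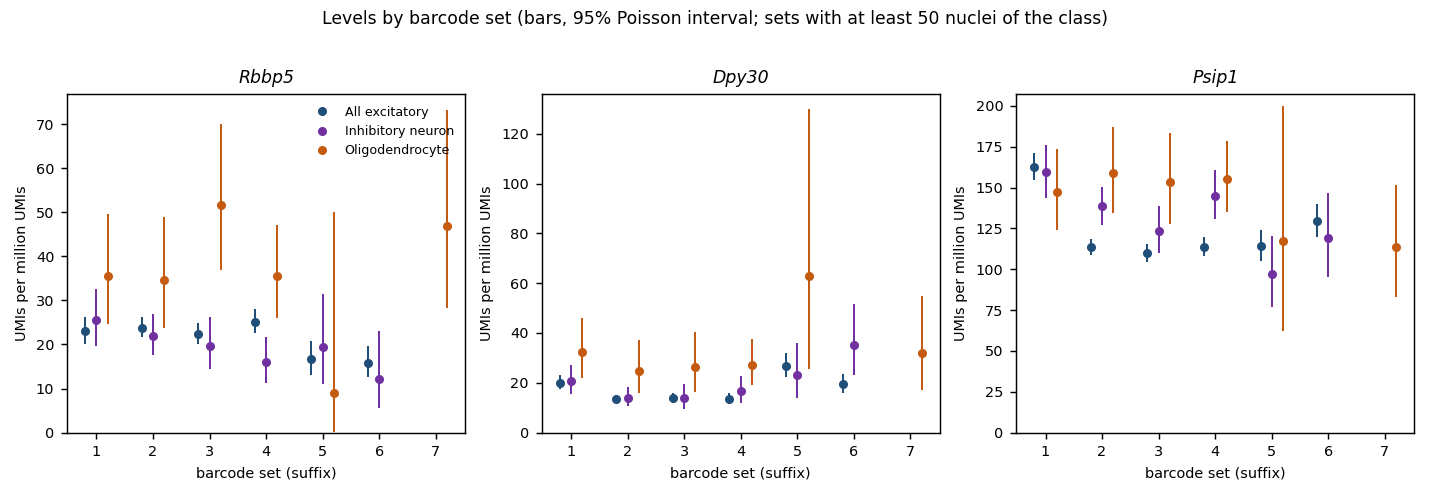
Levels of 3 genes in CPM by barcode set in excitatory neurons (blue), inhibitory neurons (purple) and oligodendrocytes (orange); bars are 95% Poisson intervals. In excitatory neurons Psip1 stands at 163 in set 1 and at 110 to 130 in the other 5 sets.

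Taking the 10 genes as a whole, Psip1 and Men1 made up 43.3% (42.7 to 43.9) of their UMIs in neurons and 41.6% (39.5 to 43.7) in non-neuronal nuclei. The core genes made up 27.7% (27.2 to 28.2) in neurons and 31.5% (29.6 to 33.5) in non-neuronal nuclei. Cxxc1 and Wdr82 together made up 13.5 and 13.6%, since their opposite differences cancelled. Paxip1 made up 9.89% in neurons and 8.13% in non-neuronal nuclei, and reached 13.7% (12.5 to 14.9) in CA2/CA3 neurons. By class, the core share was 32.2% (30.01 to 34.5) in oligodendrocytes, which hold most of the non-neuronal UMIs, and 25.5% (20.2 to 31.5) in their precursors. The share of Psip1 and Men1 ran from 34.7% in astrocytes to 53.6% in Cajal-Retzius neurons, on 33 and 52 UMIs.

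How many of the genes a nucleus showed depended on its depth. At least 2 of the 10 were counted in 49.6% of neurons, against 11.97% outside neurons. At least 1 of the 10 genes had a UMI in 77.9% of neurons, against 44.2% outside neurons. After thinning all nuclei to 1000 UMIs, which left out 97 neurons and 725 non-neuronal nuclei, the shares with at least 1 gene were 27.2% (26.4 to 28.1) and 29.6% (27.8 to 31.4), and those with at least 2 were 3.33 and 4.32%. The gap seen without thinning was therefore not present at equal depth. Thinned shares for single genes were small. In thinned oligodendrocytes Rbbp5 had a UMI in 3.88%, Ash2l in 3.77%, Wdr82 in 3.52% and Dpy30 in 3.16%, and the excitatory marker Slc17a7 in 3.06%. In excitatory neurons Slc17a7 stood at 231 CPM, against 22.5 for Rbbp5, 25.7 for Ash2l, 24.5 for Wdr82 and 15.9 CPM for Dpy30. Its share is therefore no yardstick for stray counts of these less abundant genes. Rbbp5 was seen in 2.02% and Dpy30 in 2.24% of thinned neurons. Apart from Psip1, present in 12.3% of thinned neurons and 13.4% of thinned oligodendrocytes, such shares were not read as expression in a class.

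Among 1671 well-counted genes, those whose log2 levels over the 12 classes ran most like Rbbp5 were Cdip1 (r = 0.934), Cyth1 (0.891) and Hnrnpl (0.881), each highest in oligodendrocytes and lowest in their precursors. For Dpy30 they were Nr1d2 (0.958), Cfdp1 (0.946) and Sec62 (0.943), each lowest in CA2/CA3 neurons. For Men1 they were Dop1a (0.839), Zfp973 (0.824) and Cdh2 (0.807), each lowest in microglia, where Men1 rested on 2 UMIs. These Pearson correlations describe 12 class values that share sets and depth, and carry no test.

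The other genes of H3K4 methylation gave the surroundings. Their counts stand against 33.3% of all genes tested that were at least 1.5-fold lower in neurons, and are too small to set the lists apart from it. Of the 6 catalytic subunits, 1 was at least 1.5-fold lower in neurons than in non-neuronal nuclei and none higher: Kmt2c, which encodes MLL3, had a ratio of 0.600 (0.575 to 0.626). Of 7 further associated genes with enough UMIs, 4 were lower and none higher, with Kdm6a, the H3K27 demethylase of the MLL3/MLL4 complexes, at 0.324 (0.306 to 0.344) and Tet3 at 0.602. Of the 6 H3K4 demethylases, 1 was lower and none higher, and of 4 genes shared with other complexes, Rbbp4 was lower at 0.592. Kdm6a was lower in neurons in 5 of 5 sets and exceeded in size the difference of any of the 10 subunits. Within neurons, 1 of 7 associated genes was apart between dentate granule and CA1, with none in the other lists. Of all genes tested, 28.1% were apart there. The shares were 28.1% for excitatory over inhibitory neurons and 22.0% for CA2/CA3 over CA1. They were 57.5% for microglia and 50.0% for precursors, each over oligodendrocytes. Kdm6a was higher in dentate granule than CA1 neurons at 1.71 (1.57 to 1.86), in 6 of 6 sets, the same direction as Rbbp5. Between excitatory and inhibitory neurons, Ogt, whose enzyme modifies HCFC1, was lower at 0.606 (0.586 to 0.627), and Hcfc2, a relative of Hcfc1, was higher at 1.53 (1.35 to 1.74), each in 6 of 6 sets. Hcfc2 was lower in CA2/CA3 than CA1 neurons at 0.613, and Kat8 at 0.589. In microglia over oligodendrocytes, Kansl1 (1.92), Tet3 (1.80) and Kmt2d (1.75) were higher and Kdm6a (0.575) lower. In precursors over oligodendrocytes, Kdm6a (0.414), Tet3 (0.508), Ncoa6 (0.510) and Kmt2b (0.603) were lower, the last with an interval that held 1.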

How the data were processed

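Values are the authors' deposited UMI counts, whole numbers with no scaling; the file headers give integer entries. Cell Ranger 4.0.0 and the builds mm10 and GRCm38 are named per the submitters' processing notes. The annotation, and whether intronic reads were counted, is not given in the sources used here.

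Kept barcodes (15553 of 15661) had 500 or more UMIs, 300 or more genes and less than 5% mitochondrial UMIs, and doublets were called per set with Scrublet in scanpy 1.11.5. In sets 2, 5 and 7 it marked under 0.5% of nuclei and is not taken to have worked. Nuclei were clustered by Leiden at resolution 1 (leidenalg 0.10.2) on 2071 features without the 10 genes or the listed H3K4 genes, giving 34 clusters after 1 split. A name needed at least 4 raised markers of a class. Clusters that passed only general neuronal or excitatory markers were called other neurons or other excitatory. The members, gene lists and markers were chosen with earlier results of these data known, and the naming rule was built while looking at the clusters. Counts were summed per class, and ratios carry exact 95% intervals for a pair of Poisson counts. Shares carry exact Clopper-Pearson intervals. A gene was assessed with at least 100 UMIs over both sides. No test was possible with 1 sample. All 10 genes are named in every comparison. Other H3K4 genes are named when at least 1.5-fold apart, up to 4 per comparison, largest first, and the 3 most correlated genes are named for the 3 genes with the widest range. Ratios and intervals were tested on simulated data. One free-RNA marker is not reported here.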

Additional observations from a re-analysis of the deposited data

How the results depend on the processing

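Classes rest on markers, depth differs 4.10-fold between neurons and non-neuronal nuclei, and glial classes other than oligodendrocytes hold few UMIs, which limits their ratios. No paired analysis was possible because all samples form 1 group and no label ties a barcode set to a sample. The ratio of each gene lay within its main interval in 363 of 364 cases that left out 1 set and in 342 of 364 under the other scaled alternatives. Some of the former could not change. Set 7 held 0 CA1, CA2/CA3, dentate granule and inhibitory nuclei, and set 6 held 0 oligodendrocytes, precursors and microglia. The rest share the counts of all other sets with the main ratio, so their closeness to it says little about stability.

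Between neurons and non-neuronal nuclei, where 1 gene was lower and 0 higher, 10 genes were higher and 0 lower without scaling to total UMIs. Dpy30 was then at 2.49, since neurons carry more UMIs, and 92.9% of all genes tested were at least 1.5-fold apart. Thinning to 1000 UMIs kept the count at 1 but changed the gene, with Dpy30 at 0.692 and Rbbp5 at 0.600. A minimum of 1000 UMIs gave 2 lower (Rbbp5 added), classing each nucleus on its own and a limit of 2-fold gave 0, and the median over sets gave 1 higher (Cxxc1). At the 2-fold limit 41.1% of all genes were apart. Shares at 1.5-fold were 57.9% after thinning, 59.65% at the minimum of 1000 UMIs, 50.6% with nuclei classed singly and 58.3% by the median over sets. Leaving out 1 set gave 1 to 3 lower: 3 without set 1 (Wdr82 and Rbbp5 added) and 2 without set 2 or set 4 (Rbbp5 added). Of all genes tested, 59.8 to 60.4% were then apart. Between excitatory and inhibitory neurons, thinning to 1000 UMIs gave 1 higher (Paxip1), where 27.25% of all genes tested were apart. Rbbp5 was 1.46-fold higher in dentate granule than CA1 neurons, and 0 genes were called, when unnamed clusters joined their best class. At the 2-fold limit 0 were called. The shares of all genes tested were 28.5 and 15.2%. In CA2/CA3 over CA1 neurons, 10 genes were higher without scaling, where 93.3% of all genes tested were apart. After thinning, 1 of 2 assessed was higher (Paxip1, with Psip1 the other assessed), against 26.95% of all genes. By the median over sets 1 was higher (Men1), against 21.6%. In microglia over oligodendrocytes, 2 were lower without scaling (Psip1 added), 0 of 1 after thinning and 2 by the median over sets (Dpy30 added). The shares of all genes apart were 55.8, 61.2 and 56.4%. Leaving out 1 set gave 1 to 3 lower, with 3 without set 3 (Ash2l and Psip1 added) and 2 without set 4 (Dpy30 added). Of all genes tested, 57.5 to 58.55% were then apart. In precursors over oligodendrocytes, 1 was higher without scaling (Paxip1), 0 lower of 1 assessed after thinning and 0 lower by the median over sets. For Rbbp5 that median rests on the 3 UMIs put in where no precursor UMI was counted. The shares of all genes apart were 50.99, 55.1 and 53.0%. Leaving out 1 set gave 1 to 2 lower, with 2 without set 3 or set 7 (Wdr82 added). Of all genes tested, 49.99 to 52.4% were then apart. Apart from scaling and thinning, which change the totals or the number assessed, the cause was not tested.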

Other observations

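The 788 unnamed nuclei, which entered no comparison, held all 10 genes at a summed 336 CPM (322 to 351), between the neuronal 311 and the non-neuronal 360 CPM. Their Dpy30 level was 23.6 CPM (19.95 to 27.6), between the 17.5 CPM of neurons and the 28.7 CPM of non-neuronal nuclei, and their Psip1 level was 138 CPM (129 to 148). Of these nuclei, 317 lie in a cluster with raised markers of oligodendrocytes, their precursors and microglia. Its best class under the naming rule, dentate granule neurons, rested on only 2 of 11 markers. Another 237 lie in a cluster with 11 of 12 oligodendrocyte markers raised, besides markers of precursors and microglia. Both clusters have the microglial marker Inpp5d among their leading genes. A cluster of 66 unnamed nuclei with markers of both oligodendrocytes and their precursors had Rbbp5 at 38.0 CPM (19.6 to 66.3, 12 UMIs), next to 38.5 CPM in oligodendrocytes and 11.9 CPM in precursors.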
